A study of Mus musculus with 6 samples.

Results

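Collagen hydroxylases, lysyl oxidases and the collagen chaperone were followed in 3T3-F442A cells, a mouse preadipocyte line that can be turned into fat cells. The group held 10 genes chosen by symbol, namely P4ha1, P4ha2, P4hb, Plod1, Plod2, Plod3, Lox, Loxl1, Loxl2 and Serpinh1. All 10 had a row among the 31097 rows of the deposited table, 9 of them a row of their own, and all 10 passed the filter on low values. Of these, 9 were lower in SWELL1 KO than in WT libraries, by 1.61-fold for P4hb to 5.31-fold for Plod1, and Loxl1 did not pass the test.

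Collagen is made in the endoplasmic reticulum, where prolyl 4-hydroxylases and lysyl hydroxylases modify the nascent chains. Hydroxyproline stabilises the triple helix, and hydroxylysine carries sugars and takes part in cross-links. These hydroxylases need oxygen, iron, 2-oxoglutarate and ascorbate. Outside the cell, the copper enzymes of the lysyl oxidase family oxidise lysines of collagen and elastin, from which cross-links then form. Preadipocytes are fibroblast-like cells that make much collagen, and remodel that matrix as they become fat cells.

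The study asked how loss of SWELL1 changes gene expression. SWELL1, the product of Lrrc8a, is needed for the anion channel that opens when cells swell. RNA was sequenced from 3 WT libraries of the parental line and from 3 SWELL1 KO libraries, in which the gene had been targeted with CRISPR/Cas9. All cells were grown in RPMI with 10% FBS and RNA was taken with TRIZOL. The labels name biological replicates but not whether the KO libraries came from a single clone, nor whether cells were differentiated. The sample names of the KO libraries also carry the mark D3, which is not explained, so the genotype cannot be told apart from a clone or from what that mark stands for. The p-values cover the spread between these libraries, which may be technical.

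Estimated depth was 17200000 to 20900000 fragments in WT and 18400000 to 26000000 in KO libraries. The row holding Lrrc8a also held 2 neighbouring genes, Phyhd1 and Nup188, and stood at 32.5 to 35.0 FPKM in WT and 27.3 to 28.8 in KO, so it does not check the knockout. FPKM, a fragment count divided by transcript length and library depth, is a unit inferred for this table. The cells were labelled as an adipocyte line, yet the fat cell markers Adipoq and Lep stood at 1.26 to 1.87 and at 0 in WT. The summed level of the 7 fat cell markers with a row was 137 to 196 FPKM in WT, mostly Fabp4, and 2.71 to 4.63 in KO. The 4 of them that were tested, Adipoq, Fabp4, Plin1 and Pparg, were all called lower, against 36.7% of all tested rows. The 8 markers of preadipocytes or fibroblasts summed to 5309 to 6053 FPKM in WT and 4411 to 4517 in KO, and 5 of the 7 tested were lower and 2 higher. Of other cell types, Ptprc of leukocytes was at 0 in WT and at or below 0.0204 in KO, and Csf1r and Epcam were listed at 0 throughout. Other markers on those lists were present: the macrophage list summed to 20.0 to 23.5 FPKM in WT and 20.1 to 30.6 in KO, mostly Cd14, which was not called, while Lyz2 fell from 1.51 ± 0.19 to 0.17 ± 0.13. Of epithelial markers, Krt7 fell from 4.35 ± 0.14 to 0.33 ± 0.17 FPKM, and Krt8 was called higher, at 0 in WT and 1.32 ± 0.16 in KO. The endothelial marker Vwf, the only marker tested of 6 on its list, rose from 0.42 ± 0.09 to 1.71 ± 0.02. The other 5 endothelial markers were too low to test. Among them Cdh5 was also higher in KO, at or below 0.325 FPKM. Groups overlapped for Pecam1, Kdr and Tek, and Emcn was at 0 throughout. The chondrocyte marker Sox9 rose from 1.79 ± 0.33 to 13.5 ± 0.79. Runx2, the only other tested marker on the osteoblast or chondrocyte list, was not called, at 11.0 ± 2.17 in WT and 9.62 ± 0.60 in KO. The remaining 5 with a row were too low to test, with Acan at 0 throughout. The actin gene Acta2 of contractile cells went from 74.7 ± 6.16 FPKM in WT to 1.88 ± 0.39 in KO (SD, n = 3). It was the only marker tested on the muscle list. The part of these shifts in the results below was not tested. In bulk RNA, fewer cells of a type and less RNA per cell cannot be told apart.

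Across the whole table, 65.2% of 10515 tested rows passed limma's test at an adjusted p of 0.05, 36.7% lower and 28.5% higher in KO, so a call by itself is common here. Calls at least 2-fold lower on the fitted scale were 9.51% of rows, and 6 of the 10 genes were among them. No gene of the 10 was called higher, against 28.5% of rows, or 7.52% of rows at 2-fold or more. All KO libraries lay below all WT libraries for 9 of the 10 genes and for 40.3% of rows, and 71.8% of rows had groups apart in either direction. The median log2 fold change, KO minus WT, of FPKM + 0.5, was -1.25 over the 10 genes and -0.07 over all tested rows. Summed over the 10 genes, the level was 3339 to 3400 FPKM in WT and 1451 to 1504 in KO. A single row, AC166252.2, held 16.7% to 23.7% of the FPKM sum in the KO libraries, 2.10% in WT replicate 2 and 0 in WT replicates 1 and 3. Its part in the other results was tested only by rescaling. Rescaling libraries to an equal sum without that row, the only one over 5% of a library, moved the median of all rows from -0.07 to 0.04, and the same 9 genes were called lower under it.

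**Figure D1:**
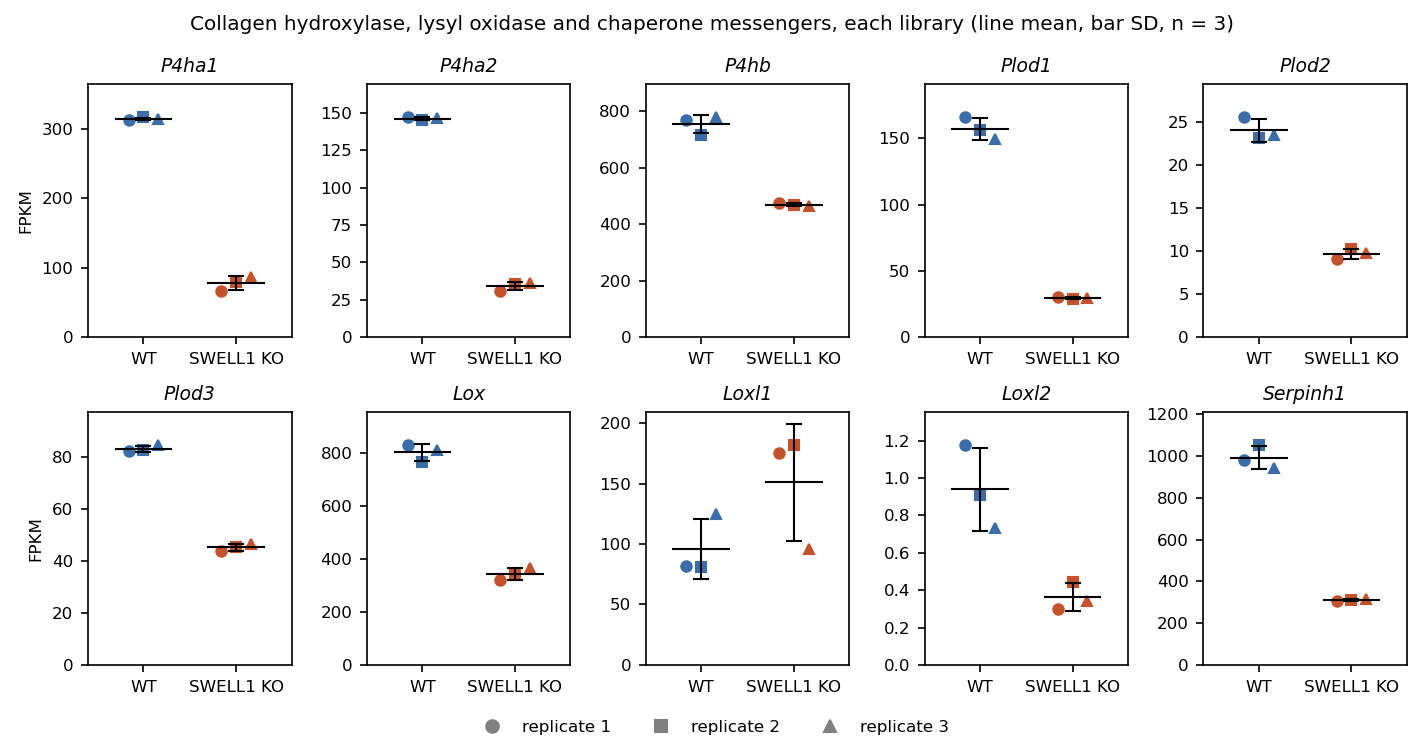
FPKM of each of the 10 genes in every library (y axis from 0, a separate scale for each gene), with WT in blue, SWELL1 KO in orange, and the mean and SD over 3 libraries in black. The KO libraries lie below all WT libraries for 9 genes, and the groups overlap for Loxl1.

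P4ha1 and P4ha2 encode catalytic alpha subunits of prolyl 4-hydroxylase, which hydroxylate proline at the collagen repeat, and both fell about 4-fold. P4ha1 (chromosome 10, 59323296 to 59373304, GRCm38) measured 313, 316 and 314 FPKM in the WT libraries (replicates 1, 2 and 3, the order used throughout) and 66.4, 79.4 and 86.7 FPKM in the KO libraries. The 3 WT values lay within a narrow band, with a coefficient of variation of 0.532%, while the KO values varied by 13.3%, and the groups were far apart. P4ha1 fell 4.05-fold (log2 fold change -2.02, SE 0.10, limma adjusted p = 2.04e-05).

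P4ha2 (chromosome 11, 54100095 to 54131665) measured 146.9, 145.4 and 146.2 FPKM in WT cells, against 31.0, 35.5 and 36.3 in KO cells. As for P4ha1, the WT libraries were nearly equal, and every KO library was below them. P4ha2 fell 4.27-fold (log2 fold change -2.08, SE 0.06, limma adjusted p = 5.71e-06). P4ha1 held 68.0% to 68.5% of the FPKM of the pair in WT and 68.2% to 70.5% in KO, and these ranges overlapped. The log2 ratio of P4ha2 to P4ha1 was -1.10 ± 0.01 (SD, n = 3) in WT and -1.17 ± 0.08 in KO (two-sided exact permutation p = 0.3). The remaining alpha subunit gene, P4ha3, which was not among the 10, fell 1.64-fold from 7.15 ± 0.21 to 4.36 ± 0.43 FPKM (limma adjusted p = 0.000641).

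P4hb encodes protein disulfide isomerase, which is the beta subunit of the prolyl 4-hydroxylase tetramer and also acts alone on disulfide bonds. P4hb (chromosome 11, 120560298 to 120573253) measured 771, 717 and 778 FPKM in WT cells, against 474, 469 and 465 in KO cells. It was among the more abundant messengers in both groups, and all KO values lay below all WT values. P4hb fell 1.61-fold (log2 fold change -0.68, SE 0.04, limma adjusted p = 3.88e-05), less than its alpha partners. The log2 ratio of P4hb to the sum of P4ha1 and P4ha2 was 0.75, 0.64 and 0.76 in WT and 2.28, 2.03 and 1.92 in KO, a shift of 1.36 towards P4hb. All KO ratios were above all WT ratios (two-sided exact permutation p = 0.1, the smallest that 3 against 3 libraries allow).

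Among lysyl hydroxylases, Plod1 encodes the form that acts on helical lysines. Plod1 (chromosome 4, 147909753 to 147936767) measured 166, 156 and 149 FPKM in WT cells, against 30.6, 28.5 and 29.5 in KO cells. It had the largest fall of the 10 genes, 5.31-fold (log2 fold change -2.39, SE 0.05, limma adjusted p = 2.14e-06), and replicates varied by 5.22% in WT and 3.56% in KO. Of all tested rows, 1.77% had a log2 fold change as low or lower.

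Plod2 encodes the form that acts on lysines of the telopeptides, the ends of the collagen molecule. Plod2 (chromosome 9, 92542223 to 92608428) was the lowest of the lysyl hydroxylases, with 25.5, 23.1 and 23.4 FPKM in WT cells, against 9.06, 10.3 and 9.72 in KO cells. The groups did not overlap, and Plod2 fell 2.48-fold (log2 fold change -1.27, SE 0.06, limma adjusted p = 2.46e-05). An annotated opposite-strand transcript, Gm38391, overlaps exons of Plod2, and without a stated strand setting its reads cannot be told apart.

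Plod3 encodes the form that also transfers sugars onto hydroxylysine. Plod3 (chromosome 5, 136987019 to 136996648) measured 82.2, 82.6 and 84.4 FPKM in WT cells, against 43.8, 45.2 and 46.5 in KO cells. Every KO library was lower, and the fall was the smallest of the family, 1.84-fold (log2 fold change -0.87, SE 0.04, limma adjusted p = 1.25e-05). Its row also carried the name of the microRNA gene Mir702, which lies in the same gene. Exons of Plod3 overlap those of Znhit1 on the opposite strand, and Znhit1 was listed at 0 in all 6 libraries, so reads of that gene in the Plod3 row cannot be told apart.

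The unequal falls changed the make-up of the lysyl hydroxylase messengers. Plod1 held 60.6%, 59.7% and 58.1% of their summed FPKM in WT replicates 1, 2 and 3 and 36.7%, 34.0% and 34.4% in KO replicates 1, 2 and 3. Plod3 went the other way as a share, from 30.1%, 31.5% and 32.8% to 52.4%, 53.8% and 54.2%, although its level fell. Plod2 held 8.81% to 9.32% in WT and 10.9% to 12.2% in KO. None of these 3 shares overlapped between the groups (two-sided exact permutation p = 0.1 for each, the smallest possible). The log2 ratio of Plod2 to Plod1 rose from -2.71 ± 0.04 to -1.61 ± 0.14 and that of Plod2 to Plod3 went from -1.79 ± 0.09 to -2.22 ± 0.07 (SD, n = 3; exact permutation p = 0.1 for each). In all, 24 ratios and shares of this kind were computed, and no adjusted p can pass at this number of libraries.

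**Figure D2:**
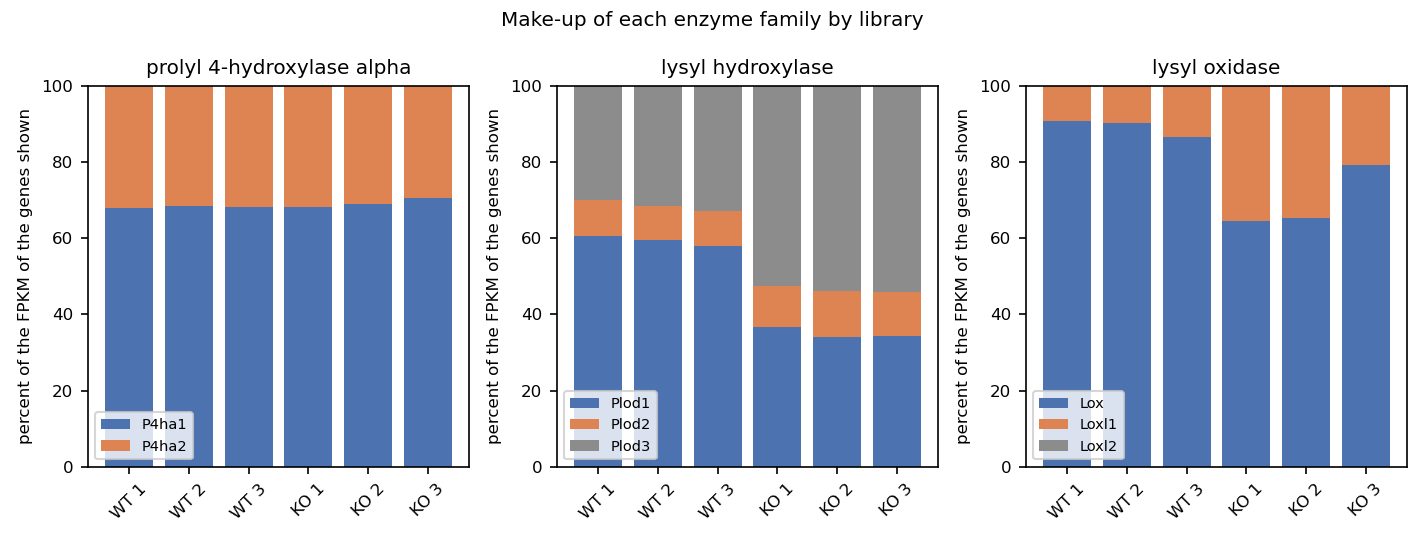
Share (percent, stacked to 100) of the summed FPKM of P4ha1 and P4ha2, of the 3 Plod genes, and of Lox, Loxl1 and Loxl2 in each of the 6 libraries. The P4ha split is alike in all libraries, Plod3 takes 52.4% to 54.2% of the Plod sum in KO against 30.1% to 32.8% in WT, and Loxl2 is too low to be seen.

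Serpinh1 (chromosome 7, 99345376 to 99353239) encodes HSP47, the chaperone that binds folded procollagen in the endoplasmic reticulum. It reached 983, 1052 and 940 FPKM in WT cells, the highest level of the 10 genes, and 308, 309 and 316 FPKM in KO cells. The KO libraries were nearly equal, with a coefficient of variation of 1.45%, and all were below WT. Serpinh1 fell 3.19-fold (log2 fold change -1.67, SE 0.05, limma adjusted p = 4.64e-06).

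The promoters shown are those of the 4 genes with the largest falls among the 10. Whether their messengers vary together was not tested. Each is the 250 bases before the RefSeq start (GRCm38.p6), in the direction of the gene, and capitals mark ACGTG or GCGTG, the core letters of the hypoxia response element, on either strand. The P4ha1 window is chr10:59323046-59323295 (plus strand), that of P4ha2 chr11:54100674-54100923 (plus), that of Plod1 chr4:147936777-147937026 (minus) and that of Serpinh1 chr7:99353240-99353489 (minus). The P4ha2 window lies inside the annotated gene, before the start of its RefSeq transcript and after the first exon of a transcript that starts farther upstream.
P4ha1: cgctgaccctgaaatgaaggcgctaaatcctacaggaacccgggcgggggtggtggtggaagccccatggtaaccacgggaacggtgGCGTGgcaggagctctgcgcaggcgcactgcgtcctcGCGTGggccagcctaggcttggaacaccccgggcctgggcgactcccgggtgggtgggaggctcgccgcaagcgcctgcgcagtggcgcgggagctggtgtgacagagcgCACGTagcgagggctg
P4ha2: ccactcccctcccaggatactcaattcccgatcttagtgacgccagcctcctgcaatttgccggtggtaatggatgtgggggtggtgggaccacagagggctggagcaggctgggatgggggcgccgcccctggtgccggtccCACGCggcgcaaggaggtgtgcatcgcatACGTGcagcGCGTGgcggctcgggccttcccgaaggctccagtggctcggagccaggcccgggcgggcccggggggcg
Plod1: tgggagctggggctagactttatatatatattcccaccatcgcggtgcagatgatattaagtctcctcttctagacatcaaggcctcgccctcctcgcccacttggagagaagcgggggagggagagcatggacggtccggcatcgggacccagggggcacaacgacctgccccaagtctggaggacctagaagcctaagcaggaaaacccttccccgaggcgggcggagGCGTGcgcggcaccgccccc
Serpinh1: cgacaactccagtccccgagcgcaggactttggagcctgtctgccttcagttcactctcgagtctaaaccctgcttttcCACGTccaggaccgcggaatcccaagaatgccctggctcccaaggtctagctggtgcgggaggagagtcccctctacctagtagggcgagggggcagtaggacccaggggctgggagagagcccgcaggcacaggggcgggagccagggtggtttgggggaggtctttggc
Windows were searched for 6 of the 10 genes, these 4 with P4hb and Plod3. Each of the 6 windows had at least 1 such core. Lox was left out of the search, and no window was used for Plod2, Loxl1 or Loxl2. Whether those genes have such a core was not tested. Of all 32851 promoter windows of this length, 38.6% held ACGTG or GCGTG, 16.6% the former and 28.2% the latter. P4ha1 and P4ha2 had 3 cores each, and in P4ha2 an ACGTG on the gene's strand and a GCGTG lay 78 and 69 bases before the start, counted to their first letters. Plod1 had a single GCGTG 20 bases before the start, and Serpinh1 a single ACGTG on the opposite strand. The letters CCAAT were found in the P4hb and Plod3 windows (33.8% of all windows) and TATAAA in that of Plod1 (12.4%). The endoplasmic reticulum stress element, searched on both strands like the others, was in none of the 6 (0.113% of all windows). The 6 windows were rich in G and C, at 55.6% to 70.0% against a median of 52.4%, and a letter match alone is no evidence of binding.

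Lox, on chromosome 18, encodes lysyl oxidase itself and was the main messenger of its family. It measured 830, 765 and 812 FPKM in WT cells, against 321, 345 and 366 in KO cells. All KO libraries lay below all WT libraries, and Lox fell 2.33-fold (log2 fold change -1.22, SE 0.06, limma adjusted p = 2.04e-05). An annotated antisense transcript overlaps Lox, as one does Loxl2, and without a stated strand setting its reads cannot be told apart from theirs.

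Loxl1 encodes the family member known for elastic fibre upkeep in mice. Loxl1 (chromosome 9, 58287738 to 58313186) measured 81.7, 81.1 and 124.5 FPKM in WT cells, against 175.8, 181.8 and 95.5 in KO cells. WT replicate 3 was above KO replicate 3, so the groups overlapped. The mean was 1.58-fold higher in KO without passing the test (log2 fold change 0.63, 95% interval -0.12 to 1.37, limma adjusted p = 0.117). The result depended on replicate 3 of either group. Without KO replicate 3 the log2 fold change was 0.93 and passed (limma adjusted p = 0.0158). Without WT replicate 3 it was 0.83 and did not pass (limma adjusted p = 0.0714). With quantile normalization Loxl1 also passed, at a log2 fold change of 0.85 (limma adjusted p = 0.0491).

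Loxl2, whose enzyme cross-links collagen IV among other targets, was near the lower end of measured genes. Loxl2 (chromosome 14, 69609068 to 69695834) measured 1.18, 0.908 and 0.734 FPKM in WT cells, against 0.297, 0.444 and 0.343 in KO cells. These values correspond to an estimated 81.6 to 107.5 fragments in WT and 30.2 to 61.3 in KO. The groups did not overlap, and the mean fell 2.6-fold (log2 fold change -0.73 on the FPKM + 0.5 scale, which understates it, SE 0.16, limma adjusted p = 0.00826).

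Lox held 90.9%, 90.3% and 86.6% of the FPKM of Lox, Loxl1 and Loxl2 in WT and 64.6%, 65.4% and 79.2% in KO, again with KO replicate 3 nearest to WT. The log2 ratio of Loxl1 to Lox was -3.34, -3.24 and -2.71 in WT and -0.87, -0.92 and -1.94 in KO, so that ratio did not overlap although Loxl1 alone did (two-sided exact permutation p = 0.1, the smallest possible). The family members outside the 10 genes differed in direction. Loxl3 fell 1.38-fold, from 29.5 ± 0.98 to 21.4 ± 1.62 FPKM (limma adjusted p = 0.00124). Exons of Loxl3 overlap those of Htra2 on the opposite strand, so reads of the overlap cannot be told apart. The row of Htra2 stood at 23.3 to 28.5 FPKM in WT and 23.6 to 25.0 in KO. Loxl4 rose 1.86-fold, from 9.75 ± 0.90 to 18.2 ± 0.86 (limma adjusted p = 0.000203).

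**Figure D3:**
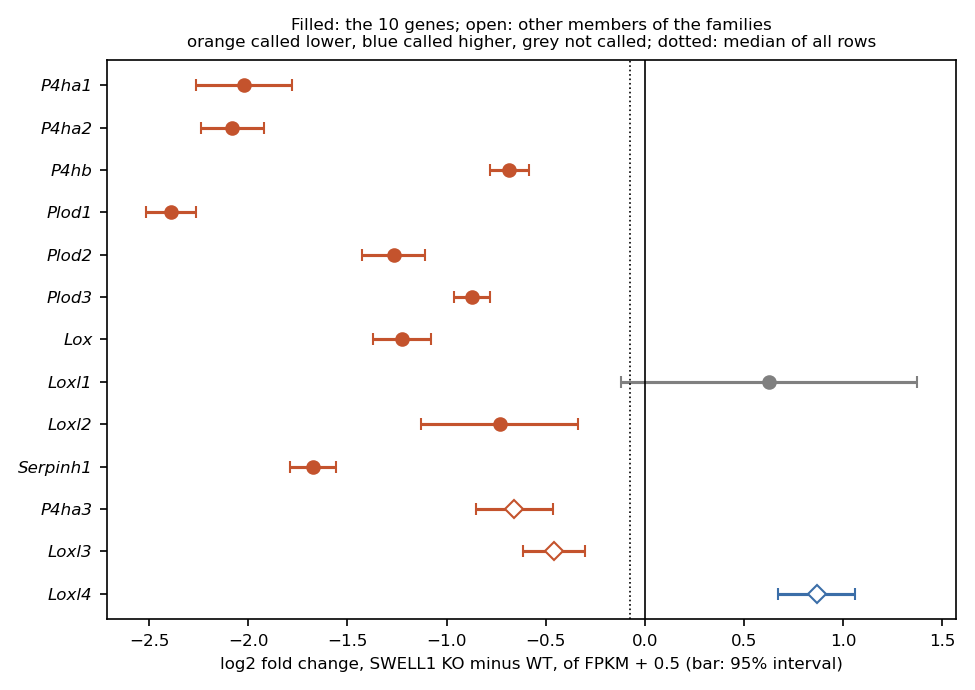
Log2 fold change, SWELL1 KO minus WT, of FPKM + 0.5 with 95% intervals from limma for the 10 genes (filled circles) and for P4ha3, Loxl3 and Loxl4 (open diamonds), with the median of all tested rows dotted. Intervals of 9 of the 10 genes lie below 0, that of Loxl1 spans 0 (-0.12 to 1.37), and Loxl4 lies above 0.

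**Figure D4:**
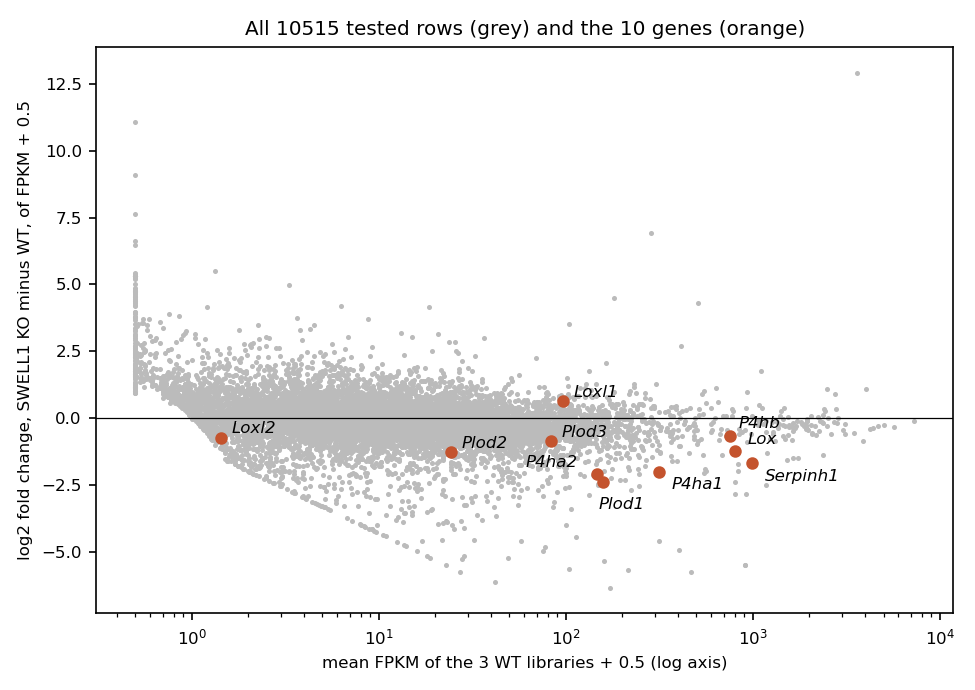
Log2 fold change, SWELL1 KO minus WT, of FPKM + 0.5 (y axis) against the mean WT level plus 0.5 (log x axis) for all 10515 tested rows in grey and the 10 genes in orange. P4ha1, P4ha2, Plod1 and Serpinh1 lie low among abundant rows, and Loxl2 sits at the low end of the levels.

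The substrates moved in both directions, over a wide range. Of 12 tested collagen chain genes 6 fell and 3 rose, with a median log2 fold change of -0.22, which was 0.01 under quantile normalization. Of all tested rows, 36.7% were lower and 28.5% higher, and each list count below is to be read beside these shares. Under each of the 3 scalings, and without WT replicate 1, 5 chains rose. Col1a1 and Col1a2, the chains of collagen I, fell 1.53-fold and 1.59-fold, from 973 ± 149 to 636 ± 54.1 FPKM and from 1445 ± 30.6 to 909 ± 42.9 (limma adjusted p = 0.00567 and 5.55e-05). Col3a1, of collagen III, rose 1.21-fold, from 1419 ± 116 to 1716 ± 28.0 (limma adjusted p = 0.00943). Col12a1 fell 66.6-fold, Col5a2 3.07-fold and Col8a1 2.74-fold, while Col6a2 and Col6a1 rose 1.51-fold and 1.3-fold.

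Each gene was therefore also set against the mean log2 level of Col1a1, Col1a2 and Col3a1 in the same library. On this scale the KO libraries were below all WT libraries for 9 of the 10 genes. The matching share of all tested rows was not computed on this scale. Without the chain mean it was 40.3%. The shift was -2.08 log2 units for Plod1, -1.76 for P4ha2, -1.70 for P4ha1, -1.34 for Serpinh1 and -0.35 for P4hb. For Loxl1 it was 0.96, with groups that overlapped (two-sided exact permutation p = 0.2, against p = 0.1, the smallest possible, for the other 9). The Plod1 values were -3.05, -2.94 and -3.00 in WT and -5.07, -5.08 and -5.08 in KO, so that the KO libraries were nearly equal.

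**Figure D5:**
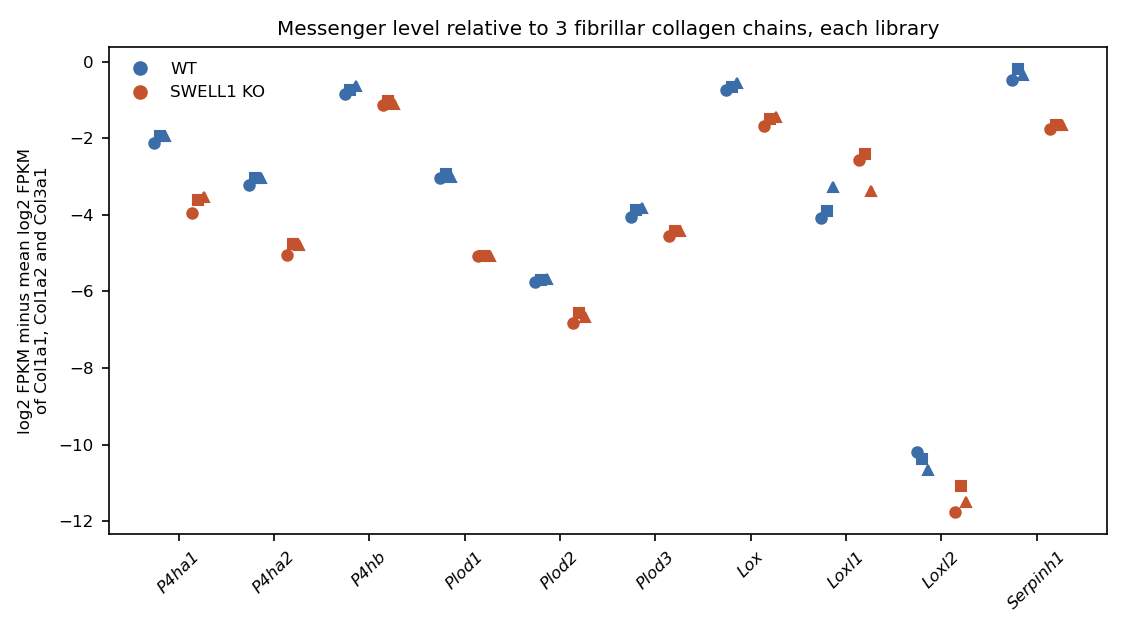
Log2 FPKM of each gene minus the mean log2 FPKM of Col1a1, Col1a2 and Col3a1, per library, with WT in blue, SWELL1 KO in orange and marker shapes for replicates 1 (circle), 2 (square) and 3 (triangle). The groups are apart for 9 genes and overlap for Loxl1.

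Other enzymes of collagen modification mostly fell as well: 8 of 10 tested genes were lower and 1, Loxl4, was higher, with a median log2 fold change of -0.61. P3h1, which hydroxylates proline at its other position, fell 3.04-fold from 42.8 ± 10.6 to 14.1 ± 1.26 FPKM (limma adjusted p = 0.000584). P3h4, a non-catalytic relative, fell 1.91-fold. Crtap, the partner of P3h1, measured 76.5, 74.2 and 71.3 FPKM in WT cells, against 60.8, 36.2 and 36.7 in KO cells (limma adjusted p = 0.0182). The Crtap call was lost under quantile normalization (adjusted p = 0.0662) and when WT library 1, WT library 2, KO library 2 or KO library 3 was left out (adjusted p between 0.0511 and 0.0562).

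Genes for procollagen export from the endoplasmic reticulum fell in 5 of 7 tested cases and rose in none, or in 1 under each of the 3 scalings (median log2 fold change -0.67). The coat gene Sec23a fell 3.06-fold from 79.7 ± 7.94 to 26.1 ± 1.56 FPKM, and the transcription factor genes Creb3l2 and Creb3l1 fell 2.28-fold and 1.65-fold. Among genes for processing the procollagen ends, 3 of 4 tested with a row of their own, all proteinase genes, were higher and 0 lower, or 1 lower without KO replicate 1. The enhancer of the C-proteinase, Pcolce, was left out of that count because its row is shared with Fbxo24: the row was the most abundant of the list and fell 1.59-fold, from 362 ± 12.6 to 227 ± 9.09 FPKM (limma adjusted p = 5.94e-05). Pcolce2 was too low to test, at or below 0.237 FPKM in every library. Bmp1, the C-proteinase that also activates lysyl oxidase, rose 1.56-fold from 38.0 ± 2.69 to 59.1 ± 2.74 FPKM (limma adjusted p = 0.000332). Adamts14, an N-proteinase, rose 4.13-fold from 3.68 ± 0.14 to 15.2 ± 0.97 (limma adjusted p = 6.99e-06). Furin rose 1.17-fold (limma adjusted p = 0.0107). The remaining gene tested, Adamts2, was not called, at 18.3 ± 0.87 FPKM in WT and 14.4 ± 3.06 in KO (limma adjusted p = 0.077).

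Elastic fibre genes, the other substrates and partners of lysyl oxidases, fell in 7 and rose in 5 of 13 tested cases (median log2 fold change -0.19), or fell in 5 to 6 and rose in 6 under the 3 scalings. For all tested rows the shares were 36.7% lower and 28.5% higher. Elastin was too low to test: Eln measured 0.626, 0.583 and 0.340 FPKM in WT cells, against 0, 0 and 0.0429 in KO cells. Among the fibulin genes tested, 3 fell and Efemp1, which encodes fibulin-3, rose 2.72-fold from 0.61 ± 0.11 to 1.66 ± 0.38 FPKM (limma adjusted p = 0.00363). Fbln5 was at 4.63, 11.9 and 11.2 FPKM in WT and 0.0526, 0.0453 and 0.0731 in KO, and Fbln2 and Fbln1 fell 4.17-fold and 3.41-fold. Ltbp4, a binding protein of latent TGF-beta, rose 2.3-fold, and Emilin1 2.06-fold.

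Hydroxylases that share the chemistry of the collagen enzymes but act on other proteins also fell, in 5 of 6 tested cases with none higher, or 1 higher under median-ratio scaling and equal-sum rescaling. Egln3 and Egln1, the oxygen sensors that hydroxylate HIF, fell 17.4-fold and 3.66-fold, with Egln3 at 34.6, 39.0 and 31.6 FPKM in WT and 1.53, 2.46 and 2.06 in KO. The histone demethylase gene Kdm4b fell 2.63-fold. Of the protein disulfide isomerase relatives of P4hb and their oxidases, 8 of 10 were lower and 0 higher (median log2 fold change -0.75). The oxidase gene Ero1l fell 5.27-fold from 801 ± 15.5 to 152 ± 8.99 FPKM (limma adjusted p = 1.86e-06), and Pdia6 fell 2.78-fold. Erp44 measured 48.5, 132.3 and 102.7 FPKM in WT cells, against 26.0, 47.1 and 27.2 in KO cells, and its call (limma adjusted p = 0.0273) did not hold when WT library 2, WT library 3, KO library 1 or KO library 3 was left out (adjusted p between 0.0737 and 0.081).

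Genes that supply copper, iron or vitamin C moved both ways, with 3 of 9 tested lower and 3 higher and a median log2 fold change of -0.08 that turned positive under quantile normalization and equal-sum rescaling. These shares were near those of all tested rows, 36.7% lower and 28.5% higher. Slc31a1, the copper importer, fell 2.35-fold from 22.9 ± 1.54 to 9.73 ± 0.18 FPKM. Slc39a13, a zinc transporter of secretory compartments that was placed on this list, fell 1.97-fold and is counted among the 3 lower. The iron chaperone gene Pcbp1 fell 1.49-fold. The ascorbate transporter gene Slc23a2 and the transferrin receptor gene Tfrc rose 1.45-fold and 1.48-fold. Each of these 5 had a limma adjusted p of 0.0116 or less.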

How the data were processed

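RNA levels came from 1 table that the authors deposited, with a value per library for 6 libraries. The deposited values are taken as FPKM, which the authors would have from Cufflinks 2.02, a tool listed with TopHat and GRCm38 per the submitters' processing notes. No header names the unit. Settings, strand and annotation release: not given in the sources used here. A 0 in such a table can be a failed estimate.

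The 10515 rows averaging 0.5 FPKM or more were tested on log2(FPKM + 0.5) with limma 3.58.1 (R 4.3.3), with a variance trend, two-sided, and Benjamini-Hochberg adjustment over all rows. Within-library ratios used FPKM without a pseudocount and exact permutation tests. Depth was estimated from low values of 955 single-transcript genes of at least 2500 bases, and few values set each estimate. The fit was also run on simulated data with 200 of 10515 genes changed, far fewer than the 65.2% of rows called here. It recovered 53.7% of genes changed 1.5-fold, 80.6% at 2-fold and 93.9% at 4-fold, and 3.8% of its calls were false.

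Positions are from GENCODE M21 and promoters from RefSeq. From each other gene list the text names up to 2 of the largest rises and up to 3 of the largest falls among called genes with no library at 0 and groups apart, plus 8 genes fixed by name. Efemp1, Pcolce, Pcolce2, Adamts2, Furin and the markers of other cell types were named after their values were seen. Rows shared with another protein-coding gene (Pcolce) were left out of list counts, and genes with no row were not analysed here. Members and lists were chosen with earlier results of these data known. Tables and figures were made in Python 3.11.15 (pandas 2.3.3, matplotlib 3.10.9).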

Additional observations from a re-analysis of the deposited data

How the results depend on the processing

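The 9 genes called lower kept that call under pseudocounts of 0.1 and 1, no filter on low values, median-ratio scaling, quantile normalization, equal-sum rescaling, the robust fit, the replicate block and each fit without 1 library. The exception is a mean of at least 2 FPKM, under which Loxl2 was not tested and 8 were lower. The number of the 10 genes called higher was 0, but 1 under quantile normalization and 0 to 1 over fits without 1 library, the gene being Loxl1 (log2 fold change 0.85 under quantile normalization, and 0.46 to 0.93 without 1 library). Ranges of log2 fold change over all settings were -2.43 to -2.22 for Plod1, -2.11 to -1.82 for P4ha1 and -0.72 to -0.40 for P4hb. With a pseudocount of 0.5 the log2 ratio of Loxl2 to Lox shifted by 0.49 in place of -0.15, and that of Loxl2 to the collagen chains by -0.40 in place of -1.04, since Loxl2 lies near the pseudocount. With the replicate number as a block 9 of the 10 genes were lower and 6534 rows were called, against 6860. Same-numbered libraries did not deviate together (r of 0.003, 0.012 and -0.093 for numbers 1, 2 and 3). No pairing by number was seen, but 3 libraries per group cannot exclude it.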
